A study of Mus musculus with 6 samples.

Results

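The adrenergic and cAMP pathway of fat cells was followed through 9 genes taken by name: Adrb1, Adrb3 and Adra2a, which encode catecholamine receptors, Gnas and Gnai1, which encode G protein alpha subunits, Adcy6, an adenylyl cyclase, Prkar2b and Prkaca, which encode subunits of protein kinase A (PKA), and Pde3b, a phosphodiesterase. All 9 were among the 24421 gene symbols counted, and 7 of them had enough counts to be tested. The cells were 3T3-L1 adipocytes, a mouse line labelled C57BL/6 which turns into fat cells in culture and here received an adenovirus at 100 pfu/cell 7 days after differentiation began. The control group, AdLacZ, received a virus carrying LacZ, and the AdLmo3 group received a virus carrying a codon-optimized murine Lmo3, so that both groups carried virus and no uninfected cells were compared. Each group comprised 3 infections, with RNA taken 72 h later, and no source says whether these used separate differentiations, so the p-values measure the spread between infections. Before infection all cells had been treated alike with insulin (870 nM) and a thiazolidinedione (TZD, 5 µM), and until day 3 also with dexamethasone (1 µM) and IBMX (500 µM), an inhibitor of phosphodiesterases.

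In fat cells, noradrenaline bound to beta-adrenergic receptors activates the stimulatory G protein, which turns on adenylyl cyclase, and the cAMP formed releases the catalytic subunits of PKA from their regulatory subunits. PKA then phosphorylates hormone-sensitive lipase and perilipin and so starts lipolysis, whereas alpha2-adrenergic receptors act through inhibitory G proteins to lower cAMP. Phosphodiesterase 3B degrades cAMP and is the enzyme through which insulin restrains lipolysis.

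Adrb3 was the one member with an adjusted p under 0.05 in edgeR's fit across all genes, at 2.62 times the AdLacZ level in AdLmo3 cells. Scaled with edgeR's TMM factors, transcripts of Pde3b, Adcy6, Prkar2b and Prkaca were higher in each AdLmo3 library than in any AdLacZ library, by 1.15 to 1.41 times. Scaled by library totals, the groups overlapped for Adcy6. In edgeR 0 of these 4 passed the threshold of an adjusted p under 0.05, with unadjusted p-values of 0.00330 to 0.0218. DESeq2 called Pde3b, Adcy6 and Prkar2b, and limma voom called 0 of the 4. Gnas and Adrb1 overlapped between the groups, and Adra2a and Gnai1 were close to the limit of detection. Thus 1 of 7 tested members was called, where 4.29% of all 12766 tested genes were called in either direction and 2.73% were called higher. With TMM scaling, every AdLmo3 library was higher than any AdLacZ library in 5 of 7 tested members, which held for 13.3% of all tested genes. The median log2 fold change of the 7 was 0.26, and that of all tested genes was 0.0014.

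The libraries held 28035639 to 38332335 counts on genes, and a count of 3, taken as the smallest detectable number, corresponded to 0.0783 to 0.107 CPM (counts per 1000000 counts on genes), a limit that covers counting error only. No library held a read on Lmo3 (count of 0 in each of the 6), and as the virus carried an altered coding sequence, this gene does not check the labels. Of 12 adipocyte markers, 12 were higher in AdLmo3 cells and 8 were called, and their summed level was 20680 to 22860 CPM in AdLacZ and 28140 to 33980 CPM in AdLmo3 libraries. Lpl and Fabp4, the most abundant of them, had log2 fold changes of 0.23 and 0.62, with adjusted p-values of 0.590 and 0.0596 (edgeR). Summed markers of preadipocytes and fibroblasts spanned 15510 to 19980 CPM in AdLacZ and 15370 to 22990 CPM in AdLmo3 libraries, with 0 of 10 tested genes called and log2 fold changes of 0.12 for Col3a1 and 0.16 for Col1a1. Brown and beige markers summed to 78.6 to 114.7 CPM in AdLacZ and 85.5 to 104.6 CPM in AdLmo3 libraries, with Ucp1, Tmem26, Tbx1 and Prdm16 at 3 counts or fewer in each library, and macrophage markers summed to 16.3 to 17.6 and 13.2 to 15.8 CPM, with Adgre1 and Itgam at 3 counts or fewer. Neither of these lists held a called gene by edgeR, DESeq2 or limma voom, and at an unadjusted p under 0.05 edgeR found 0 of the preadipocyte, 0 of the brown and beige and 1 of the macrophage markers.

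Adrb3 encodes the beta3-adrenergic receptor, the beta receptor typical of rodent fat cells, with its gene at 27225776 to 27250616 on the minus strand of chromosome 8 (GRCm38, as for all positions given). Its level, scaled with edgeR's TMM factors, was 48.2, 48.4 and 39.5 CPM in AdLacZ replicates 1, 2 and 3, and 79.7, 119 and 158.3 CPM in AdLmo3 replicates 1, 2 and 3. All 3 AdLmo3 libraries lay above all 3 AdLacZ libraries, and the AdLmo3 libraries differed more among themselves (119 ± 39.3 CPM, SD, n = 3) than the AdLacZ libraries did (45.4 ± 5.06 CPM, SD, n = 3). The log2 fold change was 1.39 (standard error 0.22, 95% interval 0.88 to 1.90), with an adjusted p of 0.0152 by edgeR's quasi-likelihood test. Among the 12766 tested genes it ranked 21 from the highest log2 fold change and 176 by p.

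The call for Adrb3 depended on single libraries. The adjusted p by edgeR was 0.0554 without AdLacZ replicate 2, 0.0901 without AdLacZ replicate 3 and 0.0682 without AdLmo3 replicate 2, while the log2 fold change lay between 1.13 and 1.62 over the 6 omissions. Calls over all genes also fell, from 548 to 234 without AdLacZ replicate 2, 75 without AdLacZ replicate 3 and 129 without AdLmo3 replicate 2. A further limit concerns the reads: 24.9% of the exon bases of Adrb3 overlap the antisense transcript Gm45470, which has no symbol in the count tables, and 16.4% of its stretches of read length (75 bases) lie there. The strand setting of the counting is not given in the sources used here, so reads from both strands cannot be told apart in that part. In bulk RNA, moreover, a larger share of adipocytes and more Adrb3 RNA per adipocyte cannot be told apart.

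Adrb1 encodes the beta1-adrenergic receptor (chromosome 19, 56722199 to 56733113, plus strand). It reached 0.675, 0.691 and 0.501 CPM in the AdLacZ libraries and 0.567, 0.625 and 0.740 CPM in the AdLmo3 libraries, from 17 to 27 counts each. The groups overlapped throughout. Its log2 fold change of 0.02 had a 95% interval from -0.60 to 0.65 (adjusted p = 0.976, edgeR), so that at this depth ratios between 0.658 and 1.57 could not be separated from no difference.

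Adra2a encodes the alpha2A-adrenergic receptor, which inhibits adenylyl cyclase (chromosome 19, 54044151 to 54048982, plus strand). It had 9, 8 and 4 counts in the AdLacZ libraries and 7, 9 and 5 counts in the AdLmo3 libraries, 21 in each group. These counts were too low for the test, and when every gene with a count was admitted, the adjusted p was 0.944 (edgeR) for a log2 fold change of 0.10 ± 0.51 (± standard error).

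**Figure D1:**
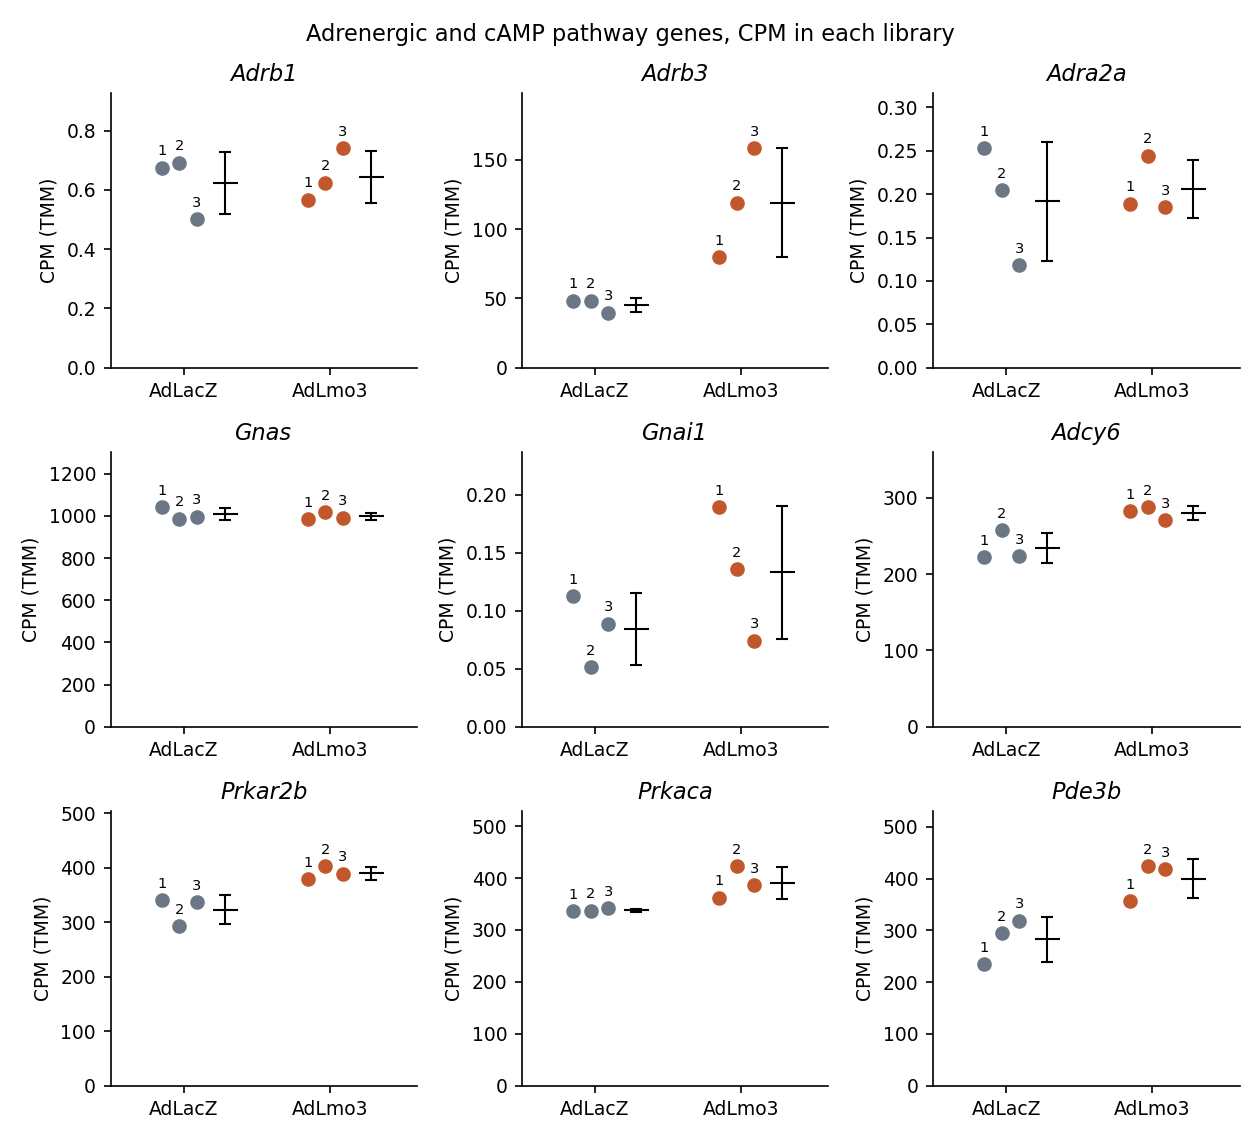
Level of each of the 9 genes in CPM (TMM-scaled, linear axes from 0) in the 3 AdLacZ and the 3 AdLmo3 libraries. Numbers are replicates, and the horizontal mark with bars is the mean ± SD (n = 3). Adrb3 was at 39.5 to 48.4 CPM in AdLacZ and at 79.7 to 158.3 CPM in AdLmo3 libraries, whereas Gnas overlapped between the groups and Adra2a and Gnai1 stayed below 0.3 CPM.

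Gnas encodes the stimulatory alpha subunit, Gs alpha, that couples beta receptors to adenylyl cyclase (chromosome 2, 174284320 to 174346744, plus strand). It had 1041, 987 and 996 CPM in the AdLacZ libraries and 985, 1018 and 992.5 CPM in the AdLmo3 libraries. The groups overlapped, and all 6 libraries lay within the range of the AdLacZ libraries but for AdLmo3 replicate 1, which was slightly lower. Its log2 fold change was -0.01 (95% interval -0.19 to 0.16, adjusted p = 0.945, edgeR), which bounds a difference to between 0.879 and 1.12 times. The symbol covers transcripts with alternative first exons, and 22% of its merged exon bases overlap the antisense genes Gm20721 and Nespas.

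Gnai1 encodes an inhibitory alpha subunit (chromosome 5, 18265135 to 18360355, minus strand). It had 4, 2 and 3 counts in AdLacZ and 7, 5 and 2 counts in AdLmo3 libraries. This was 9 against 14 counts in all, with a log2 fold change of 0.72 and a standard error of 0.66 (adjusted p = 0.655, edgeR) once the filter was lifted. The standard error was nearly as large as the difference. Among the genes Gnai1, Gnai2 and Gnai3, compared with each other alone, the shares per kilobase of Gnai2 and Gnai3 were 60.03% and 39.9% in AdLacZ and 60.07% and 39.9% in AdLmo3 libraries on average, against 0.0219% and 0.0391% for Gnai1. The groups overlapped for each of these 3 shares. The levels of Gnai2 and Gnai3 themselves were lower in each AdLmo3 library than in any AdLacZ library. Their log2 fold changes were -0.16 and -0.17 (adjusted p = 0.200 and 0.212, edgeR).

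Adcy6 encodes adenylyl cyclase 6, a membrane cyclase stimulated by Gs alpha (chromosome 15, 98589973 to 98610076, minus strand). It had 222, 258 and 224 CPM in the AdLacZ libraries and 282.5, 288 and 270.4 CPM in the AdLmo3 libraries. The 3 AdLmo3 libraries were all higher, the nearest pair being 257.5 CPM in AdLacZ replicate 2 and 270.4 CPM in AdLmo3 replicate 3. Scaled by library totals this pair changed order (10059 of 38332335 counts on genes against 7304 of 28035639), so the groups overlapped. The log2 fold change of 0.26 (standard error 0.07, 95% interval 0.08 to 0.43) had an adjusted p of 0.0998 (edgeR) and did not pass the threshold, and 8.92% of the exon bases overlap the antisense gene Gm29331.

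The make-up of gene families was compared as reads per kilobase of exon within each library. Of the transcripts of the 10 adenylyl cyclase genes, Adcy6 made up 79.1% ± 1.08 in AdLacZ and 81.5% ± 0.427 in AdLmo3 libraries (SD, n = 3 each), without overlap. Adcy9 followed with 15.5% and 13.8%, and Adcy3 with 3.50% and 3.12%, both with overlapping groups. Adcy6 was the main cyclase transcript in all 6 libraries. Each comparison of shares was made by an exact permutation test, two-sided, which cannot go below p = 0.1 with 3 against 3 libraries, and groups without overlap had p = 0.1 (adjusted p = 0.28 over 42 shares and ratios).

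Prkar2b encodes the type II beta regulatory subunit, which holds PKA inactive until cAMP binds and is the regulatory isoform typical of white fat (chromosome 12, 31958476 to 32061296, minus strand). Its level was 340.4, 292 and 336 CPM in AdLacZ and 378.5, 403 and 389 CPM in AdLmo3 libraries. The groups did not overlap, with means of 323 ± 26.7 and 390.0 ± 12.1 CPM (SD, n = 3 each). The log2 fold change was 0.27 (standard error 0.08, 95% interval 0.10 to 0.45, adjusted p = 0.0934, edgeR).

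Prkaca encodes the catalytic alpha subunit of PKA (chromosome 8, 83972993 to 83996443, plus strand). It had 336, 337 and 341.5 CPM in AdLacZ and 362, 423 and 386 CPM in AdLmo3 libraries. The AdLacZ libraries were nearly alike, and every AdLmo3 library was higher. The log2 fold change was 0.21 (standard error 0.07, 95% interval 0.04 to 0.37), and the adjusted p was 0.160 (edgeR).

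Within the regulatory subunits, Prkar2b made up 46.5% ± 1.56 of the reads per kilobase in AdLacZ and 51.3% ± 0.576 in AdLmo3, whereas Prkar1a, the type I alpha subunit, made up 47.2% ± 0.830 and 42.6% ± 0.1495 (SD, n = 3 each). Neither share overlapped between the groups (exact permutation p = 0.1, the smallest possible with n = 3 each). Shares of a family add up to a whole, so a rise of Prkar2b lowers the share of Prkar1a, and these are not separate results. Prkar2b was slightly ahead of Prkar1a in AdLacZ replicates 1 (47.5% and 47.0%) and 3 (47.2% and 46.5%) and behind it in replicate 2 (44.7% and 48.1%). In AdLmo3 replicates 1, 2 and 3 it was ahead, with 50.6%, 51.7% and 51.5%. Prkaca accounted for 92.2% ± 0.180 and 93.4% ± 0.472 of the catalytic subunits, the rest being Prkacb. The ratio of regulatory to catalytic transcripts was 1.29 ± 0.0614 in AdLacZ and 1.245 ± 0.0646 in AdLmo3, with overlapping groups (exact permutation p = 0.5, n = 3 each).

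Pde3b encodes phosphodiesterase 3B, which breaks down cAMP and is activated downstream of insulin (chromosome 7, 114415281 to 114539251, plus strand). It had 234, 294.5 and 318.5 CPM in the AdLacZ libraries and 356, 424 and 418 CPM in the AdLmo3 libraries. The lowest AdLmo3 library lay above the highest AdLacZ library, and the means were 282 ± 43.3 and 399 ± 37.7 CPM (SD, n = 3 each). The log2 fold change of 0.50 (standard error 0.12, 95% interval 0.22 to 0.78) gave an adjusted p of 0.0631 by edgeR's quasi-likelihood test, which did not pass the threshold. The adjusted p-values by DESeq2 were 0.00131 for Pde3b, 0.0215 for Prkar2b, 0.0363 for Adcy6 and 6.94e-05 for Adrb3.

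Among the 18 phosphodiesterase genes compared per kilobase, Pde3b took 44.9%, 51.0% and 52.6% of the transcripts in AdLacZ and 57.0%, 58.1% and 59.4% in AdLmo3 replicates 1, 2 and 3. It was the most abundant of them in each library. Pde1a, a calcium-dependent phosphodiesterase, came next with 23.1% ± 2.71 and 22.0% ± 0.0649 (SD, n = 3 each). The share of Pde1b was 4.13% ± 0.270 and 1.89% ± 0.432, and that of the cGMP-stimulated Pde2a was 5.56% ± 0.631 and 3.37% ± 0.235, in both cases without overlap.

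**Figure D2:**
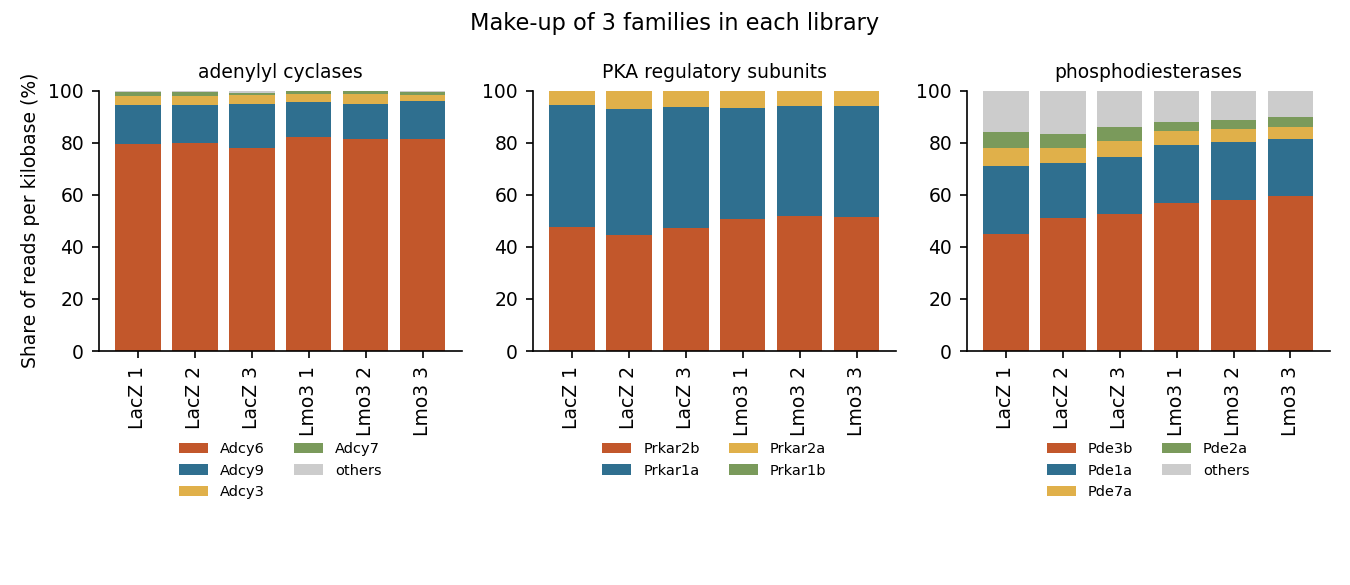
Stacked bars of the share of reads per kilobase of merged exon (%) that each gene took of its family in each of the 6 libraries, for adenylyl cyclases, PKA regulatory subunits and phosphodiesterases. Genes outside the most abundant 4 are pooled as others in the larger families. Adcy6 and Pde3b held the largest share of their family in all 6 libraries, and Prkar2b had means of 46.5% in AdLacZ and 51.3% in AdLmo3 libraries.

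Levels of different members were compared per exon length, as CPM per kilobase of merged exon (RPKM). In AdLacZ libraries Prkaca was highest with 135.9 ± 1.21 RPKM, followed by Gnas with 90.1 ± 2.61 and Prkar2b with 88.4 ± 7.32, which did not differ beyond their spread. Adcy6 (34.6 ± 2.94 RPKM) and Pde3b (31.0 ± 4.75 RPKM) overlapped as well, and Adrb3 followed with 13.4 ± 1.499 RPKM (SD, n = 3 each). The 3 remaining members were far below, at 0.184 RPKM for Adrb1, 0.0397 for Adra2a and 0.0268 for Gnai1, the last pair overlapping. In AdLmo3 libraries Prkar2b (106.8 ± 3.32 RPKM) stood above Gnas (89.3 ± 1.57 RPKM), and Adrb3 (35.2 ± 11.7 RPKM) overlapped with Adcy6 (41.3 ± 1.30 RPKM), as it did with Pde3b (43.8 ± 4.14 RPKM). On this scale Adrb3 lay below Adcy6 and Pde3b in each AdLacZ library, while its AdLmo3 libraries ran from 23.6 to 46.9 RPKM, on both sides of the 39.9 to 42.4 RPKM of Adcy6. As the merged exons of Gnas span 11186 bases with its alternative first exons, its RPKM depends on which transcripts are present.

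**Figure D3:**
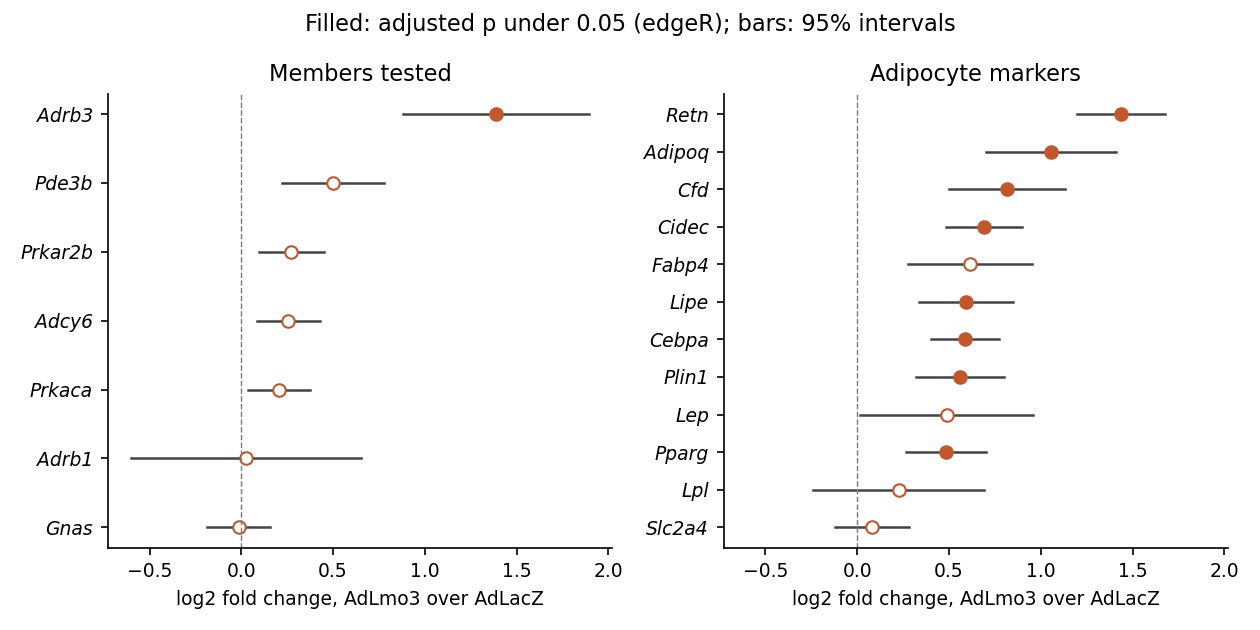
Log2 fold change of AdLmo3 over AdLacZ libraries (n = 3 each) with 95% intervals from edgeR's fit across all genes, for the 7 tested members and 12 adipocyte markers. Filled points have an adjusted p under 0.05. Adrb3 at 1.39 is the one filled member, whereas 8 of the 12 markers are filled.

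As the adipocyte markers were higher in AdLmo3 libraries, each member was also expressed per 1000 counts of the 12 markers, a measure added after seeing the data. Adrb3 then had 2.17, 2.34 and 1.73 counts in AdLacZ and 2.83, 3.68 and 4.66 counts in AdLmo3 replicates 1, 2 and 3. The AdLmo3 libraries again lay above the AdLacZ libraries, and the ratio of the means was 1.79, against 2.62 on the CPM scale. Pde3b became level between the groups, with 12.9 ± 2.04 and 12.7 ± 0.388 counts per 1000 (SD, n = 3 each), and Adcy6 overlapped at 10.8 ± 1.48 and 8.96 ± 1.04. Prkar2b, Prkaca, Gnas and Adrb1 were lower in each AdLmo3 library than in any AdLacZ library on this scale, with ratios of 0.845, 0.804, 0.692 and 0.714. For these 6 members the direction or the separation of the groups depended on the denominator, and for Adrb3 neither did. The marker sum was itself higher in AdLmo3 libraries, so a gene level on the CPM scale, such as Gnas, falls on this scale. How many of all tested genes were lower in every AdLmo3 library on it was not counted. The part of the adipocyte markers in the differences on the CPM scale was not tested.

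**Figure D4:**
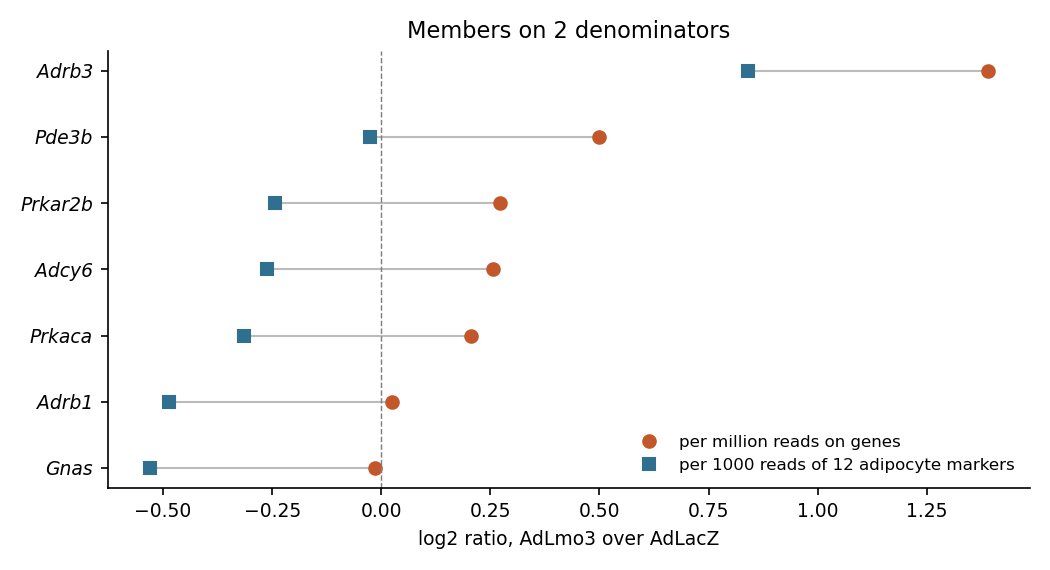
Log2 ratio of AdLmo3 over AdLacZ for the 7 tested members, as fitted by edgeR on the CPM scale (circles) and as the ratio of group means per 1000 counts of 12 adipocyte markers (squares), n = 3 each. Adrb3 lies at 1.39 and 0.84, Pde3b at 0.50 and -0.03, and Gnas at -0.01 and -0.53.

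The tested genes whose profile over the 6 libraries came nearest to that of Adrb3, by the root mean square difference of centred log2 CPM, were Acsm3 (0.0788), Vnn3 (0.125) and Arrdc4 (0.156). Vnn3 had 6.37 to 7.34 CPM in AdLacZ and 11.1 to 20.1 CPM in AdLmo3 libraries, and Arrdc4 had 8.23 to 11.3 and 15.1 to 31.1 CPM. Acsm3 stayed under 1 CPM in all libraries, where the prior count of 2 used for the profiles narrows log2 differences. Its fitted log2 fold change was 1.68 (adjusted p = 0.0718, edgeR), and it was not called, whereas Vnn3 and Arrdc4 were (adjusted p = 0.0194 and 0.0294). Nearest to Pde3b were Fam83a (0.0553), Sparcl1 (0.0589) and Grhl1 (0.0621).

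Beyond the 9 members, 165 genes of the pathway were followed in 14 lists, of which 122 were tested. Of these, 71 had a positive and 51 a negative log2 fold change, 7 were called higher and 2 lower, and their median log2 fold change was 0.05. With scaling by library totals the tally turned to 57 positive and 65 negative. The 9 called of 122 stand beside 4.29% of all tested genes. Without overlap between the groups, 23 of the 122 were higher and 14 lower in AdLmo3 libraries, beside 1692 and 1689 of all 12766 tested genes. An unadjusted p under 0.05 (edgeR) was found for 33 of the 122 and for 2652 of all tested genes. Of all tested genes, 6437 had a positive and 6329 a negative log2 fold change. Gnb5 and Pck1 were called whichever library was left out. The other 7, Tshr, Sik2, Pnpla2, Lipe, Plin1, Pde1b and Pde2a, were each lost without AdLacZ replicate 2, without AdLacZ replicate 3 and without AdLmo3 replicate 2. Tshr, Sik2, Lipe, Plin1 and Pde2a were also lost without AdLacZ replicate 1, Pde2a without AdLmo3 replicate 1, and Lipe and Plin1 without AdLmo3 replicate 3. Thus 2 genes of the lists were called without each of the first 3 of these libraries, and 4 without AdLacZ replicate 1. In lists where edgeR called 0 genes, limma voom also called 0, whereas DESeq2 called Hcar1, Hcar2, Pkia, Rgs12, Ric8 and Rap1b. In lists with an edgeR call, DESeq2 further called Mc2r, Gnb1, Gng7, Mgll, G0s2 and Fabp4, and limma voom further called Fabp4.

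The most abundant of the other adrenergic receptors was Adra1d, the alpha1D receptor, with 30.3 ± 2.51 CPM in AdLacZ and 35.2 ± 3.38 CPM in AdLmo3 libraries (SD, n = 3 each, adjusted p = 0.253, edgeR). Adra1a, Adra1b, Adra2b and Adra2c did not reach the filter. Of 9 tested Gs-coupled receptors, 1 was called: Tshr, the thyrotropin receptor, rose from 32.4, 26.9 and 30.1 CPM to 41.7, 44.2 and 58.8 CPM, with a log2 fold change of 0.69 ± 0.14 (± standard error) and an adjusted p of 0.0317 (edgeR). Of 9 tested Gi-coupled receptors, 0 were called at the adjusted threshold, with 2 at an unadjusted p under 0.05. The most abundant was Hcar1, the lactate receptor, whose log2 fold change of 0.50 had an adjusted p of 0.0987.

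For the G proteins, 8 of 9 other alpha subunits were lower and 0 were called by edgeR, with 3 at an unadjusted p under 0.05 and a median log2 fold change of -0.16, a count that was the same under each scaling tried. Gnai2, the most abundant of them, changed by -0.16 (adjusted p = 0.200). Without overlap between the groups, 3 of the 9 were lower in AdLmo3 libraries (Gnai2, Gnai3 and Gna12) and 0 were higher. Of 11 beta and gamma subunits, Gnb5, a beta subunit that pairs with RGS proteins, rose from 41.3, 41.4 and 42.7 CPM to 62.7, 69.5 and 74.1 CPM. The groups were far apart, and edgeR gave an adjusted p of 0.00348 for a log2 fold change of 0.72 ± 0.08. Gnb1, the most abundant beta subunit, had a log2 fold change of -0.20 and an adjusted p of 0.117 by edgeR, and DESeq2 called it. It was 1 of 2 genes of this list that were lower in AdLmo3 libraries without overlap, where 3 were higher.

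Neither the 6 tested other cyclases nor the 5 tested other PKA subunits and inhibitors held a called gene, with 0 and 1 at an unadjusted p under 0.05 (edgeR). Adcy9 and Prkar1a, the most abundant of each, had log2 fold changes of 0.05 and -0.02. Of 11 tested A-kinase anchor proteins, which tether PKA to sites in the cell, 0 were called and 1 had an unadjusted p under 0.05, and Akap12 had a log2 fold change of -0.20.

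Among 9 tested other phosphodiesterases, 2 fell. Pde1b had 13.4, 14.5 and 13.7 CPM in AdLacZ and 8.26, 8.72 and 5.85 CPM in AdLmo3 libraries, and changed by -0.86 ± 0.15 on the log2 scale (adjusted p = 0.0202, edgeR). Pde2a had 22.1, 20.5 and 21.0 CPM against 14.01, 15.6 and 17.2 CPM, a change of -0.44 ± 0.10 (adjusted p = 0.0450). Pde1a, the most abundant of this list, had a log2 fold change of 0.21 and an adjusted p of 0.174.

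Of 17 tested genes of receptor desensitisation and RGS proteins, 0 were called by edgeR, with 4 at an unadjusted p under 0.05, and Rgs2 had a log2 fold change of 0.18. The 5 tested EPAC and Rap genes, which form the cAMP route that bypasses PKA, held 0 called and 1 at an unadjusted p under 0.05, with Rap1b at -0.30 and an adjusted p of 0.0873. Among 12 genes of the CREB family and its coactivators, Sik2, a salt-inducible kinase that PKA inhibits, rose from 172, 165 and 176.5 CPM to 211.5, 237.5 and 274 CPM. Its log2 fold change was 0.49 ± 0.09 with an adjusted p of 0.0287 (edgeR), and the other 11 did not pass the threshold.

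The list of genes known to respond to cAMP comprised 14 genes, 10 of them tested. On the TMM scale all 10 had a positive log2 fold change, with a median of 0.24, where 6437 of all 12766 tested genes were positive. With scaling by library totals 8 of 10 were positive. Of the 10, however, 9 overlapped between the groups and 1, Pck1, was called. Pck1, which encodes phosphoenolpyruvate carboxykinase, an enzyme of gluconeogenesis and glyceroneogenesis, had 342, 271.5 and 257 CPM in AdLacZ and 606, 668 and 713 CPM in AdLmo3 libraries. The AdLmo3 libraries were well above the others, with a log2 fold change of 1.19 ± 0.12 and an adjusted p of 0.00348 (edgeR). Of the immediate early genes, Nr4a1 had a log2 fold change of 0.63 (adjusted p = 0.213, edgeR) and Fos of 0.43 (adjusted p = 0.274), and Ppargc1a, a coactivator of mitochondrial genes, of 0.08. Nr4a1, Fos and Ppargc1a were chosen after their values were seen. The remaining tested genes of the list had log2 fold changes of 0.04 (Junb), 0.04 (Per1), 0.21 (Cebpb), 0.22 (Nr4a2), 0.25 (Dusp1) and 0.29 (Fosl2).

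A cAMP response element is the sequence that CREB binds. Part of the Pck1 promoter is shown because Pck1 was the called gene of this list and its window holds letters of such an element, a match that is a description of the sequence and not of binding. The stretch, from RefSeq on GRCm38.p6, is chr2:173152934-173153033 on the plus strand, with the matching letters in capitals at -93 to -86 from the annotated start.
Pck1: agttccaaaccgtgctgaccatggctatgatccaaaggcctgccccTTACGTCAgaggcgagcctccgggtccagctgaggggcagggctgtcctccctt
The letters searched were TGACGTCA and TTACGTCA on both strands, in windows from 250 bases before to 50 bases after each start. Either occurred in 2.28% of 32851 windows. It occurred in 4 of 15 windows of the cAMP-responsive list (Areg, Dio2, Dusp1 and Pck1) and in 0 of 11 windows of the 6 members with an entry, Adrb1, Adra2a, Gnas, Gnai1, Prkar2b and Prkaca. In that list TTACGTCA matched Pck1 alone. As the list was made of genes known to respond to cAMP, its share of windows is not an independent result. Areg and Dio2 were not tested for lack of counts, and Dusp1 had a log2 fold change of 0.25 with overlapping groups.

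The lipolytic targets of PKA and the lipases comprised 7 genes, and all 7 were higher in every AdLmo3 library than in any AdLacZ library, where 13.3% of tested genes were. Lipe (hormone-sensitive lipase), Plin1 (perilipin 1) and Pnpla2 (adipose triglyceride lipase) were called, with log2 fold changes of 0.59, 0.56 and 0.57 and adjusted p-values of 0.0264, 0.0259 and 0.0135 (edgeR). Pnpla2 went from 916 to 984 CPM in AdLacZ libraries to 1326 to 1472 CPM in AdLmo3 libraries. Lipe, Plin1 and Fabp4 also belong to the 12 adipocyte markers, so these results are not separate from the difference in the markers.

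**Figure D5:**
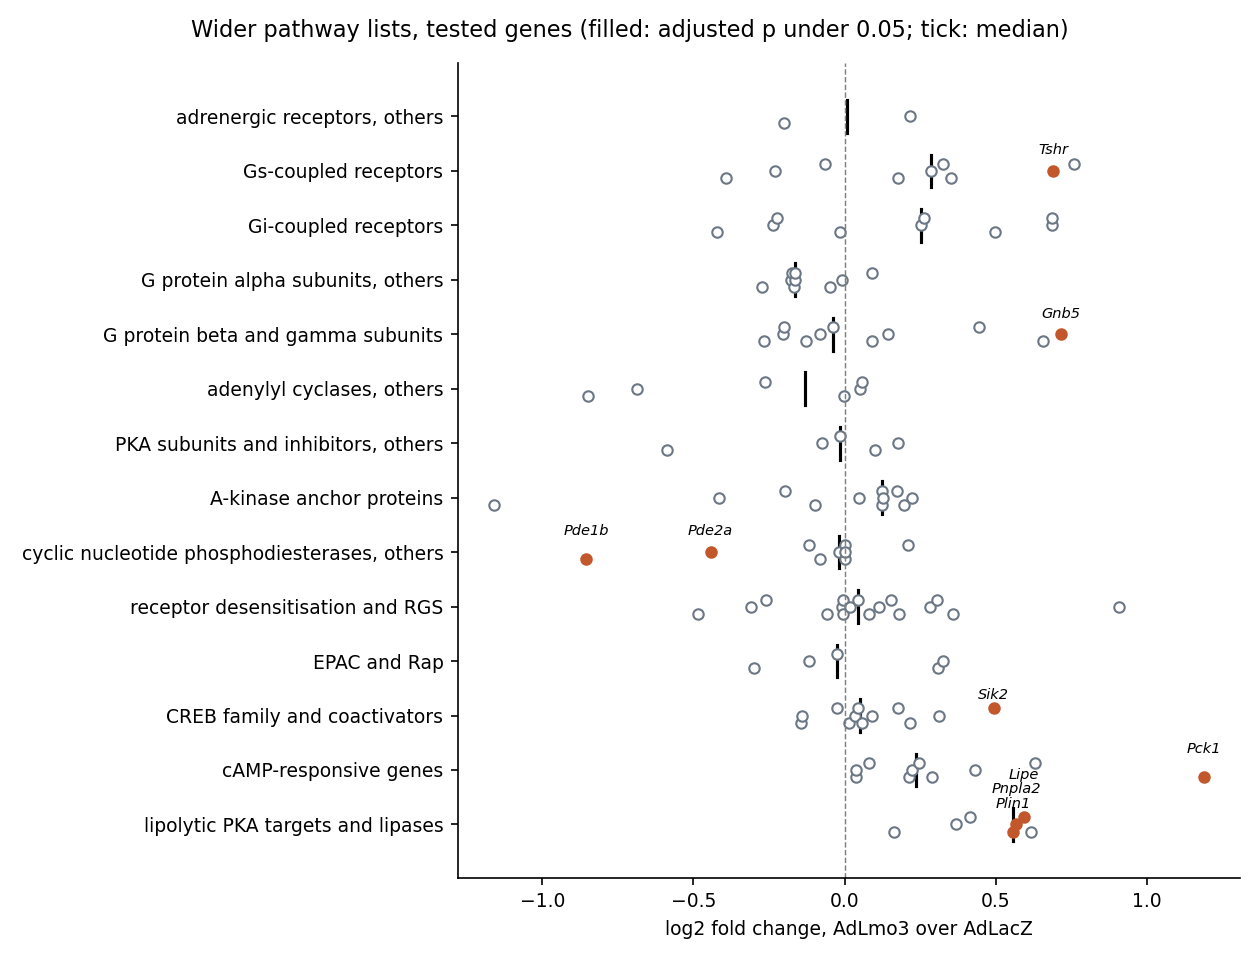
Log2 fold change of AdLmo3 over AdLacZ libraries (n = 3 each) for the 122 tested genes of 14 pathway lists, 1 point a gene, with the median of each list as a vertical tick. Filled and named points have an adjusted p under 0.05 (edgeR). The lipolytic list has its median at 0.56 and the cAMP-responsive list at 0.24, and Pde1b and Pde2a are the filled points below 0.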

How the data were processed

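The authors sequenced 75 bp single reads, which the submitters' processing notes place on mm10 with STAR 2.5.0b, and deposited raw counts per gene symbol, 1 table a library. The counting program, its strand setting and the annotation are not given in the sources used here. The lines for reads of no gene (7.15% to 8.94%) or several (0.476% to 0.543%) were left out. Depth is given in the report.

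Counts were fitted with edgeR 4.0.16 under R 4.3.3 (filterByExpr filter, TMM factors 0.964 to 1.04, quasi-likelihood test of group with the newer method, legacy = FALSE). P-values were adjusted by Benjamini-Hochberg over 12766 genes with a threshold of 0.05, giving 548 calls (349 higher, 199 lower) and 2652 at an unadjusted p under 0.05. Scaling by library totals instead gave 274 higher and 508 lower. The common biological coefficient of variation was 0.119. No replicates were alike within sampling noise (chi-square per degree of freedom 22.9 to 61.6). Exon lengths, positions and overlaps came from GENCODE on GRCm38, and promoters from RefSeq on GRCm38.p6. Scripts were tested on simulated counts.

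The members and lists were chosen with earlier results of these data known. Genes named were the 9 members, in each list the called genes and the most abundant, Lmo3, the 2 most abundant adipocyte and preadipocyte markers, and the 3 genes nearest in profile to the 2 members with the smallest p, with exceptions said in the text. Alternatives were DESeq2 1.42.0, limma 3.58.1 voom, legacy quasi-likelihood, other scaling and filters, a replicate block, and leaving out each library. Profiles used a prior count of 2. Values of 1 receptor gene are not reported here.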

Additional observations from a re-analysis of the deposited data

How the results depend on the processing

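Adrb3 kept its direction under all 16 alternatives and was called in 12 of the 15 that gave a test, the exceptions being 3 omissions of a library, with log2 fold changes from 0.84 (relative to the adipocyte markers) to 1.62. DESeq2 gave 1104 calls over all genes, 4 among the members and 21 in the wider lists. Leaving out 1 library gave 75 to 503 calls over all genes, 0 to 1 among the members and 2 to 12 in the wider lists, with the lowest count without AdLacZ replicate 3. Adrb1 fell below a filter at a mean CPM of 1 and has no value there. With scaling by library totals the median of all genes shifted by -0.07, Adrb1 changed to -0.048 and the groups of Adcy6 overlapped. Over the omissions Adrb1 ran from -0.10 to 0.12 and Gnas from -0.029 to 0.0098. Relative to the adipocyte markers the log2 ratios were -0.49 for Adrb1, -0.26 for Adcy6, -0.24 for Prkar2b, -0.32 for Prkaca and -0.026 for Pde3b, against positive values on the CPM scale. From counts not divided by length the share of Prkaca differed by 3.22 rather than 1.27 percentage points. Beyond these, the cause of each change was not tested.

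Same-numbered libraries deviated together only weakly (correlations of 0.03, 0.18 and 0.18 across genes), and replicate 1 was not closest to its own number, so the pairing rests on the number alone. The fit with a replicate block called 505 genes (406 shared), 2 among the members (Adrb3, adjusted p = 0.0316, and Pde3b, adjusted p = 0.0200, edgeR) and 13 in the wider lists. Of the 9 wider genes called without the block, Pde2a was not called with it (adjusted p = 0.0684, edgeR).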
